A study of Mus musculus with 59 samples.

Results

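Cholesterol synthesis was followed through 8 genes, which are 8 of the 21935 Ensembl genes in the deposited count table. The genes are Hmgcs1, Mvd, Idi1, Fdft1, Sqle, Lss, Cyp51 and Insig1. They were picked by symbol, with no measured value in the rule, but with earlier results of these data known. The first 7 encode enzymes, whereas Insig1 encodes a regulator of the pathway and no enzyme. The data are RNA sequencing counts from C57BL/6 mice killed 4 h after a single intraperitoneal dose of IP118/PY115 or of vehicle, in a series on combined agonism at the receptors of peptide YY and glucagon-like peptide. Brains were frozen and cut at 10 µm, and laser capture took 4 mm2 per animal from each of 3 regions: the paraventricular nucleus (PVN) and the arcuate nucleus (ARC) of the hypothalamus, and, in the hindbrain, the solitary tract nucleus (NTS). The IP118/PY115 groups held 10 PVN, 10 ARC and 10 NTS libraries, and the vehicle groups held 10 PVN, 9 ARC and 10 NTS libraries, 59 in all. Age, sex, diet and dose are not given in the labels used here. The protocol took a capture of each region from each animal, so the libraries of a region were taken as separate animals. Libraries of different regions share animals that the labels do not tie together, and p-values between regions take them as independent.

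Cells build cholesterol from acetyl-CoA through mevalonate, isoprenoid diphosphates, squalene and lanosterol. Transcription of most of the enzymes is driven by SREBP2, a membrane-bound factor whose escort protein SCAP is held in the endoplasmic reticulum by INSIG proteins when sterols are plentiful. The adult brain makes nearly all of its own cholesterol, because lipoproteins do not cross the blood-brain barrier in quantity. Astrocytes make it for neurons, and oligodendrocytes make large amounts for myelin.

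Library totals ran from 3964093 to 28510118 counts, with a median of 10717483. All 8 genes passed the filter on low counts in every comparison, and the counts behind a value ran from 14 to 296 for Idi1, the lowest of them, and from 893 to 12387 for Hmgcs1, the highest. The captures carried the markers of their regions. PVN markers such as Avp and Sim1 summed to between 8939 and 21673 CPM (counts of a gene scaled to the TMM-adjusted total of its library) in vehicle PVN, against 253 to 682 CPM in vehicle ARC and 10.6 to 22.1 CPM in vehicle NTS, where Avp and Sim1 themselves were at 0. ARC markers summed to between 2700.2 and 4042 CPM in vehicle ARC, and NTS markers to between 966 and 1509 CPM in vehicle NTS. The first library of each group in sample order, numbered 1, is marked throughout, because for Cyp51 in PVN those of both groups lay on the side of the opposite group. They are kept under their labels, and results that rest on them are also given without them. That choice was made from measured values, so the p-values it gives are too small.

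Promoter sequences in the RefSeq table for GRCm38.p6, from 250 bases before to 50 bases after the annotated start, matched 6 of the 8 genes, all but Sqle and Fdft1. The windows of 3 genes are shown, because Cyp51 is the gene that changed after treatment, Hmgcs1 holds a match to the sterol regulatory element, and Insig1 holds an E-box and had the highest mean correlation with the other genes across libraries. They lie at chr5:4104648-4104947 on the minus strand for Cyp51, at chr13:119690101-119690400 on the plus strand for Hmgcs1 and at chr5:28071162-28071461 on the plus strand for Insig1. Sequences run 5′ to 3′ along the strand of the gene, and capitals mark matches on either strand to any of 5 motifs.
Cyp51: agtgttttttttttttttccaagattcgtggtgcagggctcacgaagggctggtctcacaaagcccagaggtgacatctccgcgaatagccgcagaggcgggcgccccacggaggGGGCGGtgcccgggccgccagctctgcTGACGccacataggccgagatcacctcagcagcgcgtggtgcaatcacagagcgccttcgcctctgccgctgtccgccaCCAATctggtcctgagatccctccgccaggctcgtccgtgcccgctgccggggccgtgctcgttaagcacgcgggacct
Hmgcs1: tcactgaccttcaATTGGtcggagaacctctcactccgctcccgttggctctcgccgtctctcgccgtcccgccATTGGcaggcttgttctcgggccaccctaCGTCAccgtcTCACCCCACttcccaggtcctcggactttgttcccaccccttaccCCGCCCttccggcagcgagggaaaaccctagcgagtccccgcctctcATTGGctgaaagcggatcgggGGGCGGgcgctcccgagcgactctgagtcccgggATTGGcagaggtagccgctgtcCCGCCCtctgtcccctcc
Insig1: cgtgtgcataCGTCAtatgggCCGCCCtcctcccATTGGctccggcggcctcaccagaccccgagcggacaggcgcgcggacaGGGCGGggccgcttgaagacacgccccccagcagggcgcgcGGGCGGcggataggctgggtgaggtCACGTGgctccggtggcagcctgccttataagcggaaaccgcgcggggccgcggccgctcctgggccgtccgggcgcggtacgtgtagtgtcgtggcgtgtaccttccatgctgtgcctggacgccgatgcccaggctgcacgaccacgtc
The motifs were TCACNCCAC, a sterol regulatory element that SREBPs bind; CACGTG, an E-box that SREBPs can also bind; CCAAT, the NF-Y box; GGGCGG, the Sp1 box; and TGACG, the half-site of cAMP response elements. Among the marked matches, none overlaps a match to another motif. TCACNCCAC was found in 1 of the 6 windows, that of Hmgcs1, as TCACCCCAC at position -137 from the start, and in 1.24% of 32851 mouse promoter windows of the same length. CACGTG was found in Insig1 alone, at position -101, and in 7.15% of all windows. CCAAT and GGGCGG were found in 6 of 6 windows, against 37.4% and 35.7% of all windows. TGACG was found in 3 of 6, those of Cyp51, Hmgcs1 and Insig1, against 20.8% of all windows, and in Cyp51 it starts at position -108. These matches describe the letters of the windows only. No looser form of the sterol regulatory element than TCACNCCAC was searched, so windows without a match, that of Cyp51 included, may hold such a form.

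In vehicle mice the 8 genes shared a pattern across the regions. All 8 were lower in PVN than in NTS and lower in ARC than in NTS, and 6 of 8 were higher in PVN than in ARC, by edgeR's quasi-likelihood test in a joint fit of the 59 libraries with Benjamini-Hochberg adjusted p under 0.05 over 14379 genes. Such differences were common among all genes. For PVN over NTS, 56.1% of genes tested were called and 27.8% were called lower; for ARC over NTS, 61.7% and 31.5%; and for PVN over ARC, 46% were called and 24.8% were called higher. The median log2 difference of the 8 genes was -0.82 for PVN over NTS, -1.08 for ARC over NTS and 0.35 for PVN over ARC, beside medians of 0.00, -0.01 and 0.01 over all genes tested. In bulk captures like these, fewer cells of a type and less RNA per cell cannot be told apart.

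**Figure D1:**
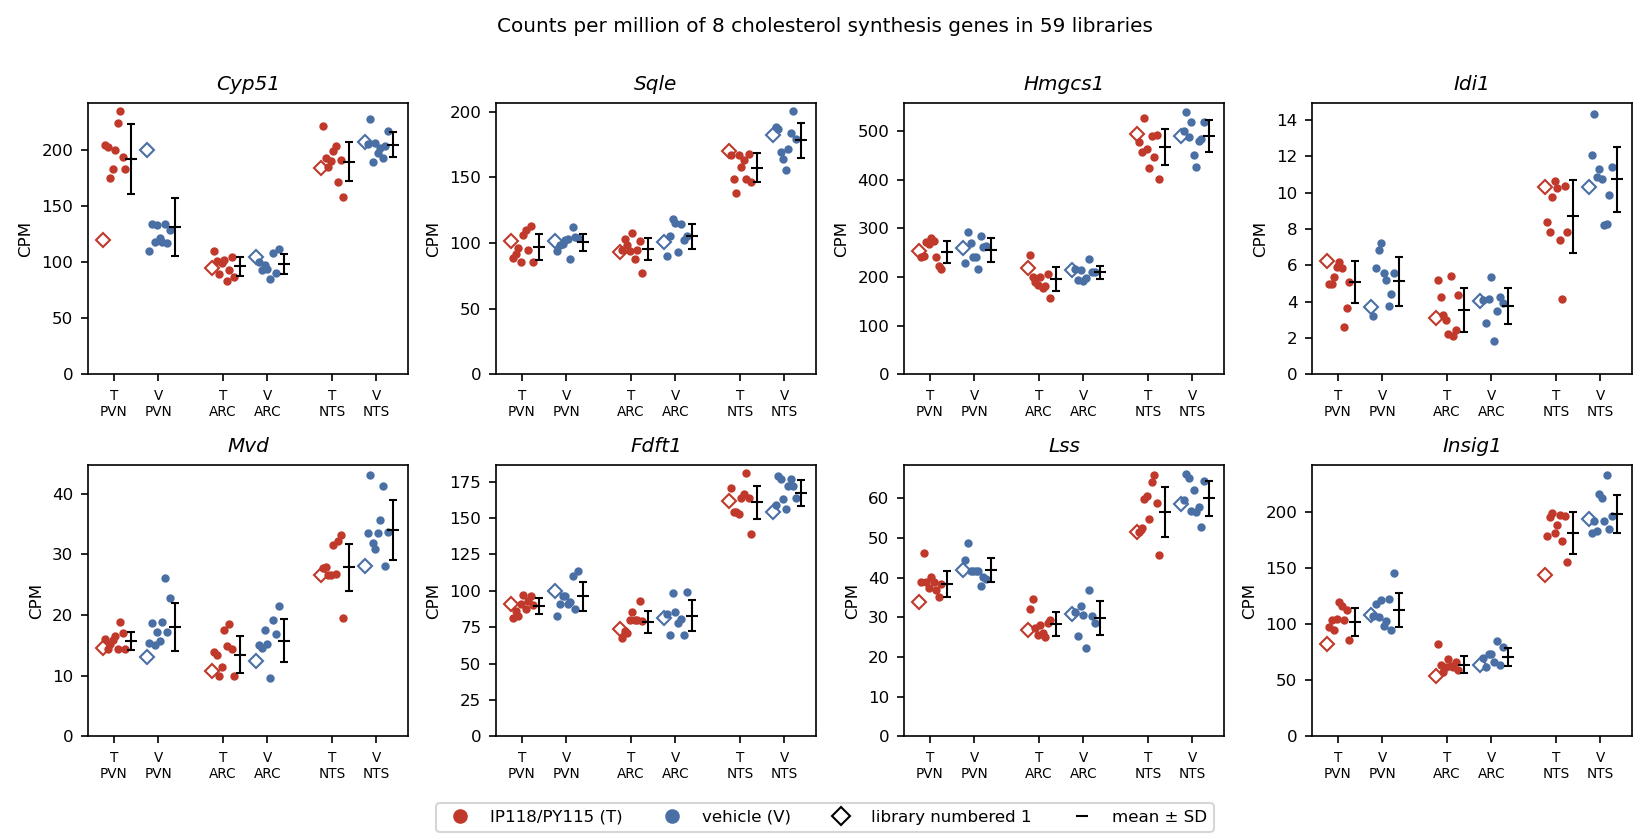
Level of each of the 8 genes in every library (y axis, CPM, scaled to the TMM-adjusted total; each panel has its own scale from 0). Libraries are grouped by region (PVN, ARC, NTS) and treatment (T, IP118/PY115; V, vehicle), open diamonds are the libraries numbered 1, and black bars are mean ± SD. Group means are highest in NTS in both treatments for 7 genes, while for Cyp51 the treated PVN mean (192 CPM) lies beside the treated NTS mean (189.8 CPM).

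The enzymes of the mevalonate part of the pathway come first. Hmgcs1, cytosolic HMG-CoA synthase (ENSMUSG00000093930; GRCm38 chromosome 13, 119690379 to 119708260, plus strand), stood between 215.5 and 293 CPM in vehicle PVN (median 260.1), between 192 and 236 CPM in vehicle ARC (median 211) and between 427 and 539 CPM in vehicle NTS (median 489). The NTS libraries did not overlap those of either hypothalamic region, and the PVN and ARC libraries overlapped in part. The log2 difference was -0.94 ± 0.06 (SE; adjusted p = 1.8e-22, edgeR) for PVN over NTS, -1.23 ± 0.06 (1.6e-27) for ARC over NTS and 0.29 ± 0.06 (4.7e-05) for PVN over ARC. Mvd, the decarboxylase that yields isopentenyl diphosphate (ENSMUSG00000006517; chromosome 8, 122433601 to 122443422, minus strand), averaged 18.02 ± 3.90 CPM in vehicle PVN, 15.8 ± 3.55 CPM in vehicle ARC and 33.99 ± 4.98 CPM in vehicle NTS (SD; n = 10, 9 and 10). PVN and ARC were not told apart for Mvd, with a log2 difference of 0.17 ± 0.12 (adjusted p = 0.248, edgeR). Idi1, the isomerase that turns isopentenyl into dimethylallyl diphosphate (ENSMUSG00000058258; chromosome 13, 8885501 to 8892451, plus strand), had the lowest level of the 8. It averaged 5.13 ± 1.35 CPM in vehicle PVN, 3.76 ± 0.989 CPM in vehicle ARC and 10.7 ± 1.79 CPM in vehicle NTS, and its log2 difference of 0.46 ± 0.18 for PVN over ARC (adjusted p = 0.0321, edgeR) was the least certain of the 6 called.

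In the squalene and lanosterol steps, Fdft1, squalene synthase (ENSMUSG00000021273; chromosome 14, 63145150 to 63179578, minus strand), averaged 96.1 ± 9.71 CPM in vehicle PVN, 82.8 ± 10.6 CPM in vehicle ARC and 167 ± 9.12 CPM in vehicle NTS. Its log2 difference was 0.21 ± 0.06 for PVN over ARC, -0.80 ± 0.06 for PVN over NTS and -1.01 ± 0.06 for ARC over NTS. Fdft1 overlaps Ctsb, which encodes the protease cathepsin B on the other strand, and the strand setting of the counting is not given in the sources used here. Ctsb was called in the same directions, at 0.25 ± 0.04, -0.20 ± 0.04 and -0.45 ± 0.04 for those 3 comparisons (edgeR, adjusted p of 9.3e-08, 6.3e-06 and 2.9e-16), and its part in the Fdft1 values was not tested. Sqle, squalene epoxidase, a rate-limiting oxygenase of the pathway (ENSMUSG00000022351; chromosome 15, 59315077 to 59331192, plus strand), was the only one of the 8 with a difference below 0 for PVN over ARC, and it did not pass. It stood between 88.1 and 112 CPM in vehicle PVN (median 102), between 90.4 and 118 CPM in vehicle ARC (median 105) and between 156 and 201 CPM in vehicle NTS (median 181). PVN and ARC overlapped almost wholly for Sqle, with a log2 difference of -0.06 ± 0.06 (adjusted p = 0.393, edgeR), whereas both lay apart from NTS, by -0.82 ± 0.06 and -0.76 ± 0.06. Lss, lanosterol synthase (ENSMUSG00000033105; chromosome 10, 76531588 to 76557138, plus strand), averaged 41.9 ± 2.94 CPM in vehicle PVN, 29.8 ± 4.24 CPM in vehicle ARC and 59.95 ± 4.31 CPM in vehicle NTS, and each pair of regions was separated without overlap. Cyp51, lanosterol demethylase (ENSMUSG00000001467; chromosome 5, 4081145 to 4104746, minus strand), stood between 110.1 and 200.1 CPM in vehicle PVN (median 125), between 84.6 and 111 CPM in vehicle ARC (median 97.5) and between 189.7 and 228 CPM in vehicle NTS (median 205). Its highest vehicle PVN library is the library numbered 1, the only one to reach the NTS range, and the log2 difference for PVN over NTS was -0.64 ± 0.08 with it and -0.73 ± 0.06 without the libraries numbered 1. Akap9, which overlaps Cyp51 on the other strand, was higher in PVN and in ARC than in NTS, by 0.46 ± 0.06 and 0.44 ± 0.06, the opposite direction to Cyp51.

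Insig1, which retains SREBPs and is itself an SREBP target (ENSMUSG00000045294; chromosome 5, 28071363 to 28078662, plus strand), had the largest difference of the 8 between the hypothalamic regions. It stood between 94.8 and 146 CPM in vehicle PVN (median 108), between 61.9 and 84.8 CPM in vehicle ARC (median 69.7) and between 181 and 233 CPM in vehicle NTS (median 193). No library of any region overlapped another region for Insig1, and its log2 difference was 0.67 ± 0.07 (adjusted p = 1.0e-11, edgeR) for PVN over ARC, -0.82 ± 0.07 for PVN over NTS and -1.49 ± 0.07 for ARC over NTS. Counting libraries that do not overlap, 2 of the 8 genes were higher in every PVN than in every ARC vehicle library (Lss and Insig1; 6.41% of all genes tested), 7 were lower in every PVN than in every NTS library (all but Cyp51; 6.94%) and 8 were lower in every ARC than in every NTS library (12.4%). Set against exon length, vehicle PVN levels ran in the order Hmgcs1 (55.7 CPM per kb of exon), Insig1 (36.4), Cyp51 (29.8), Fdft1 (22.7), Sqle (18.1), Mvd (9.69), Lss (3.89) and Idi1 (1.46). The length joins all annotated exons of a gene, over all its transcripts, and the order depends on it. It was 10787 bases for Lss and 1859 for Mvd.

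Cell type markers differed between the regions too, and not all in the direction of the 8 genes. Of 11 oligodendrocyte markers, among them Mbp and Mobp, 11 were called lower in PVN than in NTS and 11 lower in ARC than in NTS; their summed level ran from 922 to 1324 CPM in vehicle PVN, from 485 to 1308.5 CPM in vehicle ARC and from 2233 to 6785 CPM in vehicle NTS. Of 11 astrocyte markers, among them Gfap and Slc1a2, 10 were called lower in PVN than in NTS, 11 lower in ARC than in NTS and 6 higher in PVN than in ARC. Their summed level ran from 2716 to 4753 CPM in vehicle PVN, from 2067 to 2811 CPM in vehicle ARC and from 5241 to 7582 CPM in vehicle NTS. No marker of either list was at 0 in any group. Among 9 endothelial and mural markers, 7 were called higher in PVN than in NTS, 9 higher in PVN than in ARC and 9 lower in ARC than in NTS. Among 8 neuron markers, 2 were called higher and 4 lower in PVN than in NTS, 5 higher and 1 lower in PVN than in ARC, and 1 higher and 6 lower in ARC than in NTS. Among 10 microglia markers, 6, 4 and 2 were called lower for those 3 comparisons, and 0 higher. With the astrocyte marker score (the mean log2 CPM of the list) as a covariate, 6 of the 8 genes were called lower in PVN than in NTS (not Cyp51 and Idi1), 6 lower in ARC than in NTS (not Mvd and Idi1) and 3 higher in PVN than in ARC (Cyp51, Lss and Insig1), where 11.3%, 7.84% and 18% of all genes tested were called in those directions. With the oligodendrocyte score, 8, 8 and 5 were called (Idi1 was lost for PVN over ARC), beside 21.7%, 19.6% and 22.9% of all genes tested. In vehicle mice the summed oligodendrocyte and astrocyte markers did not overlap between NTS and PVN or ARC. For differences from NTS these fits therefore cannot separate region from cell composition, and a lost call can come from a wider error. Idi1 for ARC over NTS, for example, was -1.53 ± 0.17 without and -0.64 ± 0.52 with the astrocyte score. How much of each region difference goes with cell composition was not tested otherwise. Scaled by library totals alone, PVN over ARC gave 5 calls among the 8 genes (Idi1 was lost; 19.8% of all genes tested were called higher), while the split of all called genes moved to 2849 higher and 4006 lower, against 3572 higher and 3038 lower with TMM.

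**Figure D2:**
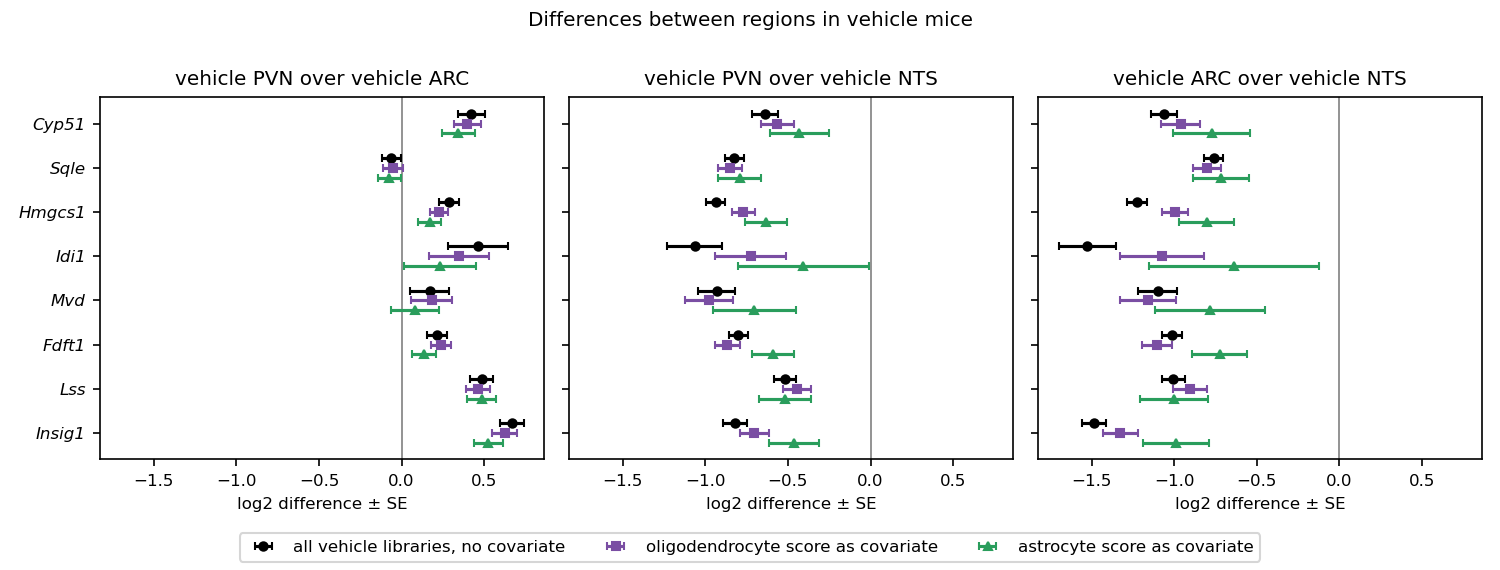
Log2 difference ± SE of each gene between vehicle groups (x axis; the region named first over the second) for PVN over ARC, PVN over NTS and ARC over NTS. Black points are the fit without covariate, purple squares include the oligodendrocyte score and green triangles the astrocyte score. With the astrocyte score Idi1 for ARC over NTS, for example, stands at -0.64 ± 0.52 and no longer passes, against -1.53 ± 0.17 without covariate.

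Other genes of the pathway, from lists of sterol enzymes and regulators, followed the regions in part. Of 15 other sterol enzymes tested, 12 were called lower in PVN than in NTS, 14 lower in ARC than in NTS, and 7 higher and 1 lower in PVN than in ARC. Among the largest differences for ARC over NTS were those of Tm7sf2, a sterol reductase (-1.73 ± 0.13), and Hsd17b7, a sterol ketoreductase (-1.65 ± 0.14). Among the largest for PVN over ARC were those of Hsd17b7 (0.68 ± 0.14) and Msmo1, the sterol methyl oxidase (0.64 ± 0.09). The Msmo1 value includes vehicle PVN library 10, at 239.8 CPM, where the medians were 114.0 CPM in vehicle PVN and 79.0 CPM in vehicle ARC. Genes of SREBP control and sterol uptake were split: of 17 tested, 6 were called higher and 8 lower in PVN than in NTS, and 5 higher and 6 lower in ARC than in NTS. Srebf1, which encodes SREBP1, was among the lower ones, at -0.96 ± 0.07 for PVN over NTS. Of 12 genes of liver X receptor (LXR) response and sterol efflux, 7 were called lower in PVN than in NTS and 9 lower in ARC than in NTS, with Lcat, which esterifies cholesterol on lipoproteins, at -2.51 ± 0.14 and -2.14 ± 0.14. Of 12 SREBP1 fatty acid genes, 10 and 10 were called lower, among them the desaturase gene Fads1 at -1.06 ± 0.06 and -1.35 ± 0.07.

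After IP118/PY115, 1 of the 8 genes changed in PVN: Cyp51 rose 1.46-fold, and the other 7 genes did not pass. Cyp51 stood between 119.8 and 235 CPM in the 10 PVN libraries of IP118/PY115 mice (median 197), against 110.1 and 200.1 CPM as the lowest and highest of 10 vehicle libraries (median 125). Of the 10 treated libraries 9 lay above the vehicle median, and 9 of them, from 175.5 to 235 CPM, lay above 9 of the vehicle libraries, from 110.1 to 134 CPM. The groups overlapped through the libraries numbered 1, at 119.8 CPM in the treated group and 200.1 CPM in the vehicle group. Cyp51 averaged 192 ± 31.3 CPM in IP118/PY115 PVN and 131 ± 25.5 CPM in vehicle PVN (SD, n = 10 each), with a log2 fold change of 0.55 ± 0.11 (adjusted p = 0.0252, edgeR, fit of the PVN libraries). Of 13409 genes tested in PVN, 88 were called, 0.656%, of which 71 rose, 0.529%; Cyp51 ranked 16 by p.

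**Figure D3:**
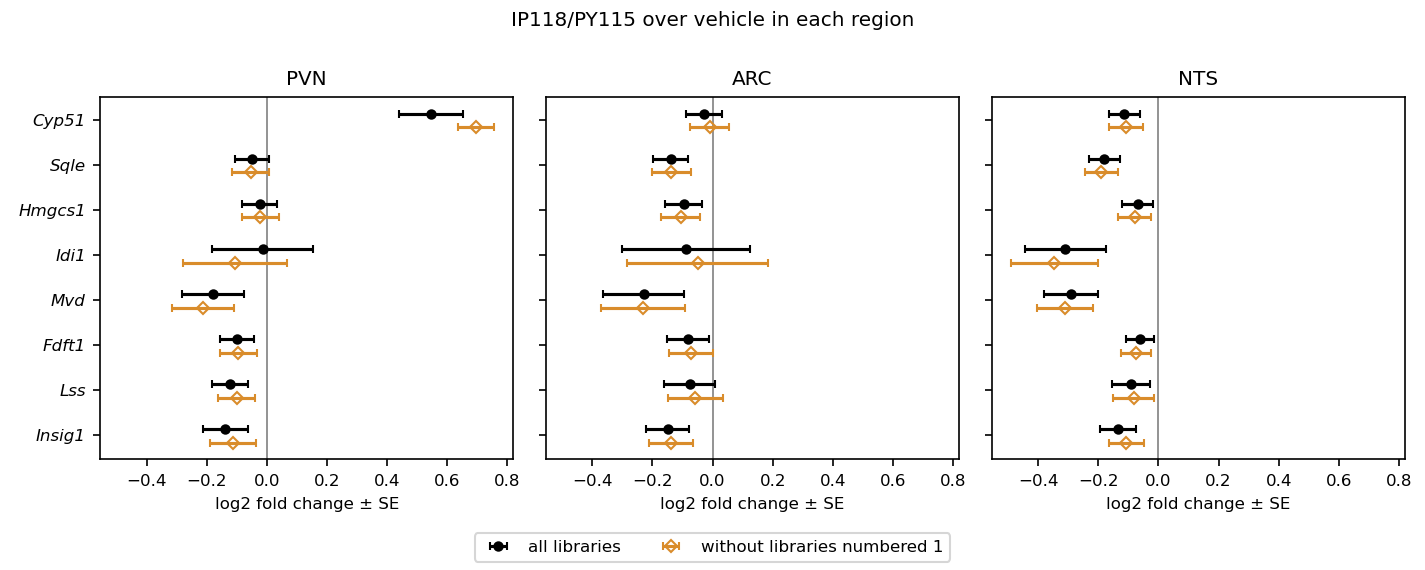
Log2 fold change ± SE of IP118/PY115 over vehicle (x axis) for each gene in PVN, ARC and NTS, with all libraries (black points) and without the libraries numbered 1 (open diamonds). Cyp51 in PVN lies farthest to the right of 0, at 0.55 and 0.70.

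Without the libraries numbered 1, Cyp51 averaged 200.2 ± 19.4 CPM in treated and 124 ± 8.86 CPM in vehicle PVN libraries (n = 9 each), the groups no longer overlapped, and the log2 fold change was 0.70 ± 0.06 (adjusted p = 7.6e-08, edgeR; 3.22% of 13342 genes were called). The call at an adjusted p of 0.05 was sensitive to the PVN libraries used. Leaving out each library in turn, Cyp51 passed in 14 of 20 fits, with log2 fold changes of 0.51 to 0.64. It did not pass without vehicle 3, 4 or 6 or without treated 7, 8 or 10, and the adjusted p ran from 0.000403 (without vehicle 1) to 0.0735 (without treated 8). It also missed the threshold without the vehicle libraries titled 5553 to 5557, which in PVN are 3 of the 10 (0.51 ± 0.14, adjusted p = 0.159, edgeR), and without vehicle 3 and 8, whose totals lay under 0.5 of the PVN median (0.55 ± 0.12, 0.105). DESeq2 gave 0.55 ± 0.11 (adjusted p = 0.000287) and limma-voom with quality weights 0.62 ± 0.09 (adjusted p = 0.000517).

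**Figure D4:**
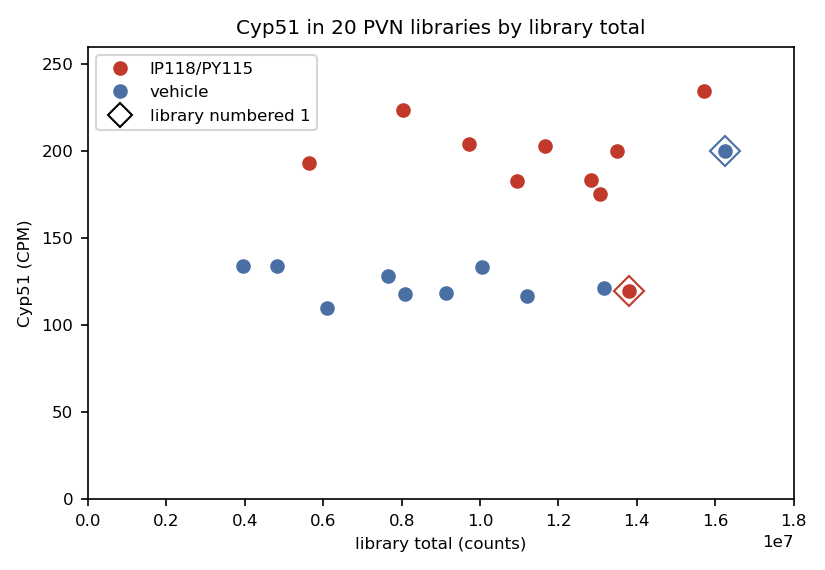
Level of Cyp51 (y axis, CPM) against the library total (x axis, counts) in the 20 PVN libraries, red for IP118/PY115 and blue for vehicle; diamonds ring the libraries numbered 1. Apart from those, the treated libraries lie above the vehicle libraries, 175.5 to 235 CPM against 110.1 to 134 CPM. The groups cover the totals unequally, and the lowest totals (3964093 and 4820728 counts) are those of vehicle libraries.

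Depth and glial markers were set beside the Cyp51 result. PVN totals ran from 5641388 to 15714290 counts in the IP118/PY115 group (median 12241201) and from 3964093 to 16244376 counts in the vehicle group (median 8612590). With the log10 total as a covariate the log2 fold change was 0.52 ± 0.11 (adjusted p = 0.109, edgeR). Oligodendrocyte markers were lower in 10 of 11 cases in treated PVN, none of them called, and summed to between 764 and 1275 CPM in treated and between 922 and 1324 CPM in vehicle libraries; with their score as a covariate the value was 0.45 ± 0.11 (adjusted p = 0.213, edgeR). Astrocyte markers were lower in 10 of 11 cases, none of them called, and summed to between 2748 and 3305 CPM in treated and between 2716 and 4753 CPM in vehicle libraries, and with their score Cyp51 passed (0.55 ± 0.12, adjusted p = 0.0478, edgeR). Akap9, the gene on the other strand, averaged 181 ± 13.8 CPM in treated and 179 ± 23.2 CPM in vehicle PVN, a log2 fold change of 0.02 ± 0.06 (adjusted p = 0.965, edgeR). Ctsb averaged 742 ± 19.4 CPM in treated and 746 ± 50.7 CPM in vehicle PVN (-0.01 ± 0.04, adjusted p = 0.985, edgeR), and Mvd overlaps Gm20388, which had 0 counts in every library.

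The other 7 genes all had fold changes below 0 in PVN, from -0.01 to -0.18 on the log2 scale, and none passed. Among all genes tested in PVN, 57.6% lay below 0. The median of the 8 genes was -0.07, beside -0.02 over all genes. Lss averaged 38.4 ± 3.29 CPM in treated and 41.9 ± 2.94 CPM in vehicle PVN (-0.12 ± 0.06, adjusted p = 0.543, edgeR), and Mvd averaged 15.7 ± 1.47 CPM in treated and 18.02 ± 3.90 CPM in vehicle PVN (-0.18 ± 0.10, 0.657). Insig1 stood at 102 ± 12.4 CPM in treated and 113 ± 14.9 CPM in vehicle PVN (-0.14 ± 0.08, 0.625). Sqle and Lss, which act just before Cyp51 in the pathway, gave -0.05 ± 0.06 and -0.12 ± 0.06 in the libraries where Cyp51 gave 0.55 ± 0.11. Hmgcs1 (-0.02 ± 0.06), Idi1 (-0.01 ± 0.17) and Fdft1 (-0.10 ± 0.06) did not pass either. Without the libraries numbered 1 the 7 genes ran from -0.02 to -0.21 and none passed.

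In ARC no gene passed in the whole table: 0 of 13484 genes were called by edgeR (0%), with 971 at an unadjusted p under 0.05 and 59 called by DESeq2. All 8 genes had fold changes below 0, as did 49.9% of all genes tested, and their median was -0.09 beside 0.00 over all genes. The 15 other sterol enzymes tested in ARC were divided, with 11 below and 4 above 0 and a median of -0.03. The smallest p of the 8 genes belonged to Sqle, which stood between 77.1 and 108 CPM in IP118/PY115 ARC (median 94.8) and between 90.4 and 118 CPM in vehicle ARC (median 105). The groups overlapped over most of their range, although 9 of 10 treated libraries lay below the vehicle median, and the log2 fold change was -0.14 ± 0.06 (p = 0.0261 and adjusted p = 0.601, edgeR). Insig1 averaged 63.8 ± 7.62 CPM in treated and 70.8 ± 7.82 CPM in vehicle ARC (-0.15 ± 0.07, adjusted p = 0.680, edgeR). Cyp51 showed no detectable difference in ARC, with 96.3 ± 8.47 CPM in treated and 98.2 ± 8.77 CPM in vehicle libraries (-0.03 ± 0.06, adjusted p = 0.954, edgeR). Oligodendrocyte markers were higher in 11 of 11 cases in treated ARC, none of them called. They summed to between 496 and 5868 CPM in treated libraries (median 925, mean 1480 ± 1631, SD) and between 485 and 1308.5 CPM in vehicle libraries (median 796, mean 800 ± 248). With the oligodendrocyte score as a covariate Cyp51 gave -0.06 ± 0.06 in ARC (adjusted p = 0.879, edgeR). Beyond fits with this score, the part of these markers in the ARC values was not tested.

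In NTS, 0 of 13696 genes were called by edgeR (0%), with 795 at an unadjusted p under 0.05 and 66 called by DESeq2. All 8 genes again had fold changes below 0, against 49.8% of all genes tested, with a median of -0.12 beside 0.00 over all genes, and 5 of 8 had an unadjusted p under 0.05 (2.61% of all genes tested did so and lay below 0). Without the libraries numbered 1 it was 3 of 8, Sqle, Mvd and Idi1 (3.51% of all genes tested), with Cyp51 at p = 0.0623 and Insig1 at p = 0.0744 (edgeR). With all libraries, the 15 other sterol enzymes tested in NTS were divided, with 9 below and 6 above 0 and a median of -0.03. Of these 15, 0 had an unadjusted p under 0.05 (edgeR). Sqle stood between 138 and 170.0 CPM in IP118/PY115 NTS (median 161) and between 156 and 201 CPM in vehicle NTS (median 181). Every treated library lay below the vehicle median, yet the ranges overlapped, and the log2 fold change of -0.18 ± 0.05 did not pass (p = 0.0015, adjusted p = 0.237, edgeR). Mvd stood between 19.5 and 33.2 CPM in treated NTS (median 27.2) and between 28.1 and 43.1 CPM in vehicle NTS (median 33.6), again with all 10 treated libraries below the vehicle median (-0.29 ± 0.09, p = 0.0034, adjusted p = 0.329). Idi1 averaged 8.68 ± 2.02 CPM in treated and 10.7 ± 1.79 CPM in vehicle NTS (-0.31 ± 0.13, adjusted p = 0.743, edgeR), with 10 of 10 treated libraries below the vehicle median. Cyp51 averaged 189.8 ± 17.2 CPM in treated and 205 ± 11.1 CPM in vehicle NTS (-0.11 ± 0.05, adjusted p = 0.792, edgeR), on the other side of 0 from its value in PVN. Insig1 (-0.13 ± 0.06), Lss (-0.09 ± 0.06), Hmgcs1 (-0.07 ± 0.05) and Fdft1 (-0.06 ± 0.05) did not pass either. Oligodendrocyte markers were higher in 10 of 11 cases in treated NTS, none of them called. They summed to between 2058 and 9607 CPM in treated (median 4908) and between 2233 and 6785 CPM in vehicle libraries (median 5355). With their score as a covariate Cyp51 gave -0.12 ± 0.05 in NTS (adjusted p = 0.461, edgeR). Beyond fits with this score, the part of these markers in the NTS values was not tested. Without the libraries numbered 1, Sqle gave -0.19 ± 0.05 (adjusted p = 0.109) and Mvd -0.31 ± 0.09 (adjusted p = 0.163, edgeR), and none of the 8 passed in ARC or NTS, where 1.14% and 1.18% of all genes tested were called.

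The difference in response between the regions was tested in the joint fit. For Cyp51 the treatment effect in PVN exceeded that in ARC by 0.57 ± 0.11 on the log2 scale (adjusted p = 0.0165, edgeR interaction), where 7 of 14379 genes were called (0.0487%), and that in NTS by 0.66 ± 0.11 (adjusted p = 0.000984), where 13 were called (0.0904%). By p, Cyp51 ranked 2 of 14379 for PVN against ARC and 1 for PVN against NTS. Without the libraries numbered 1 the values were 0.71 ± 0.09 and 0.80 ± 0.08. Without the vehicle libraries 5553 to 5557, Cyp51 did not pass for PVN against ARC (0.54 ± 0.12, adjusted p = 0.162, edgeR) and did for PVN against NTS (0.63 ± 0.12, 0.0166). With the oligodendrocyte score in the joint fit the differences were 0.60 ± 0.11 and 0.67 ± 0.11, and both passed. That fit gave the score a common slope over all 6 groups. In the PVN libraries alone, Cyp51 gave 0.45 ± 0.11 with the score and did not pass (adjusted p = 0.213, edgeR). ARC against NTS gave 0.08 ± 0.11 for Cyp51 (adjusted p = 0.9999, edgeR), and there 0 of 14379 genes were called (0%), with 540 at an unadjusted p under 0.05 and 10 called by DESeq2. None of the other 7 genes passed in any of the 3 differences, and the largest of their values was 0.29 ± 0.23, for Idi1 in PVN against NTS. Each pair of differences shares a region's libraries, so they are not independent.

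Among genes around the pathway, none of the 15 other sterol enzymes, of the 16 genes of SREBP control and uptake, of the 12 LXR and efflux genes and of the 12 SREBP1 genes tested was called in any region with all libraries. In PVN the smallest p of these lists belonged to Pnpla3, a lipid droplet protein under SREBP1 control, at 3.22 ± 0.590 CPM in treated and 5.08 ± 1.21 CPM in vehicle libraries (-0.63 ± 0.16, adjusted p = 0.0544, edgeR). Elovl6, the fatty acid elongase, gave 0.20 ± 0.07 in PVN and 0.24 ± 0.07 in ARC (adjusted p = 0.271 and 0.280, edgeR). Srebf1 gave -0.19 ± 0.08 in PVN and -0.21 ± 0.06 in NTS (0.413 and 0.245). Without the libraries numbered 1, Elovl6 (0.26 ± 0.07) and Pnpla3 (-0.60 ± 0.17) passed in PVN, at adjusted p of 0.0450 and 0.0455 (edgeR), and no gene of these lists passed in NTS. In NTS, Mbtps1, the protease that cleaves SREBPs, gave -0.16 ± 0.06 (adjusted p = 0.517, edgeR). The LXR and efflux genes with the smallest p were Abcg4 in PVN (-0.15 ± 0.06), Nr1h2 in ARC (0.20 ± 0.09) and Cyp27a1 in NTS (0.32 ± 0.14), at adjusted p of 0.338, 0.658 and 0.734 (edgeR).

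Across the 59 libraries, after the mean of each region and treatment group was taken off the log2 CPM, the 8 genes varied together unevenly. Over pairs, Pearson's r was highest for Mvd with Fdft1 (0.51), Mvd with Insig1 (0.50) and Cyp51 with Insig1 (0.45), and lowest for Idi1 with Fdft1 (-0.12). Insig1 had the highest mean r with the other 7 genes (0.33) and Idi1, the gene with the lowest counts, the lowest (0.05). Among 11597 other genes, those most like the set by mean r included Msmo1 (0.36), Sec14l2 (0.32), Ankrd9 (0.29), Scd1 (0.29), Hsd17b7 (0.28), 2310022B05Rik (0.28) and Cyp2j6 (0.27), beside a median of 0.01 over all genes compared. Msmo1 and Hsd17b7 encode enzymes of the steps after Cyp51, and Scd1 is a fatty acid desaturase. The likeness to Msmo1 was 0.33 in PVN, 0.52 in ARC and 0.31 in NTS. These correlations are a description: the libraries share depth and cell composition within a region.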

How the data were processed

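The deposited table holds raw counts per Ensembl gene for 59 libraries; per the labels' protocols they come from polyA RNA of laser-captured tissue prepared with a stranded mRNA kit. The authors used bcl2fastq 2.20.0.422 and STAR 2.5.2a with GRCm38, per the submitters' processing notes; the counting tool and its strand setting are not given in the sources used here. Symbols, coordinates and exon lengths were taken from GENCODE M21, which matched 21858 of 21935 identifiers. Counts were tested with edgeR 4.0.16 in R 4.3.3 (robust quasi-likelihood F-test, two-sided, TMM scaling, filterByExpr with a minimum count of 10 and a minimum total of 15), within each region for treatment and in a joint fit of 6 groups for regions and interactions, with Benjamini-Hochberg adjustment over all genes tested at 0.05. The fitting code was tested on simulated data. Alternatives used DESeq2 1.42.0, limma 3.58.1 (voom with quality weights), other scaling and filters, covariates, and fewer libraries. Library numbers follow sample order and pair nothing. Precision is limited by library totals of 3964093 to 28510118 counts. The 8 genes, the gene and marker lists, and the libraries left out were chosen with earlier results of these data known. From the other lists, genes with the 3 smallest p per region, or past the threshold, were eligible to be named for treatment, and the 3 largest called differences between regions. Likeness was the mean Pearson correlation of log2(CPM + 0.5) with the 8 genes, leaving out genes that averaged under 5 CPM. Some genes eligible under these rules are not reported here.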

Additional observations from a re-analysis of the deposited data

Results flagged for a closer look

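Over 48 groups of libraries, those of the 8 genes in 3 regions and 2 treatments, Dixon's test at the 95% level put 5 libraries apart from their group; chance flags about 1 in 20 groups. In PVN, the IP118/PY115 library numbered 1 was the lowest of its group for Cyp51, at 119.8 CPM, and the vehicle library numbered 1 was the highest of its group, at 200.1 CPM. Lss was highest in IP118/PY115 PVN library 3, at 46.1 CPM. In NTS, Idi1 was lowest in IP118/PY115 library 8, at 4.11 CPM, and Mvd was lowest in IP118/PY115 library 10, at 19.5 CPM.

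The treatment effect on Cyp51 differed between regions by edgeR's interaction test: it was 0.57 higher on the log2 scale in PVN than in ARC (adjusted p = 0.0165) and 0.66 higher in PVN than in NTS (adjusted p = 0.000984).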

How the results depend on the processing

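The rise of Cyp51 in PVN kept its direction under every alternative run (log2 fold changes of 0.45 to 0.70), but it is a call near the threshold. Of the 8 genes, 0 were called in PVN with the log10 total or the oligodendrocyte score as a covariate, 0 without the libraries of low total and 0 without vehicle libraries 5553 to 5557; leaving out each library in turn gave 0 to 1. The number of all genes called in PVN was 88, against 209 with DESeq2, 429 without the libraries numbered 1, 6 with the log10 total, 4 with the oligodendrocyte score, 9 without low totals and 12 without libraries 5553 to 5557. In ARC it was 0, against 59 with DESeq2 and 153 without the libraries numbered 1, and in NTS 0, against 66 and 162. For PVN against ARC, 0 of the 8 genes passed without libraries 5553 to 5557, an alternative added for the joint fit, with the low-total and log10-total ones, after seeing the data. For vehicle PVN over vehicle ARC, 3 passed with the astrocyte score. Among fold changes in PVN that never passed, Sqle was 0.0081 with the oligodendrocyte score. Hmgcs1 was 0.011 with limma-voom, 0.041 with the oligodendrocyte score, 0.0045 with the astrocyte score, 0.023 without low totals and 0.0100 without libraries 5553 to 5557. Idi1 was 0.064 with the oligodendrocyte and 0.0088 with the astrocyte score. With each library left out in turn, Hmgcs1 in PVN ran from -0.047 to 0.0036, Idi1 in PVN from -0.067 to 0.069 and Cyp51 in ARC from -0.0497 to 0.00077. The cause of these changes was not tested. No paired analysis was possible because the labels give no replicate number or animal that ties libraries together. Counts as low as 14 limit what can be seen for Idi1.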
